A study of Mus musculus with 52 samples.

Results

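Macrophage marker genes were followed in bulk RNA sequencing of mice that lack the Tug1 locus. The genes were 10 in number (Adgre1, Csf1r, Cd68, Cd163, Mrc1, Cd14, Lyz2, Aif1, Fcgr1 and Cx3cr1), were picked by gene name, and are 10 of the 39144 genes listed for at least 1 tissue. They were chosen with earlier results of these data known, so the shares of all genes set beside them are a description and not a test. All 10 were found in each of the 8 tissues. The clearest difference was in Cd163, the receptor for haptoglobin bound to hemoglobin, whose mean was higher in Tug1-/- than in wild type by more than 25% in 6 of the 7 tissues in which it reached 1 TPM. Most members were also higher past that limit in Tug1-/- liver (8 of 9, against 9.36% of all genes) and prostate (7 of 10, against 11.4%). At a ratio limit of 1.5 these counts were 3 of 9 and 5 of 10, with no share of all genes computed. At the first limit few differed in brain (1 of 10 higher, against 4.34%) and spleen (1 higher and 2 lower of 10, against 8.86% and 16.7%), which is near the share of all genes. In mouse embryonic fibroblasts (MEFs) 3 of 9 were higher and 4 lower, against 10.5% and 9.02%.

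The study asked what the Tug1 locus, which encodes a long noncoding RNA, does in mice, and compared gene expression between genotypes in many tissues. All mice were labelled male and carried the Tug1_tm1.1Vlcg strain name, with a mixed C57BL/6J/129S6 background. Heart, liver, spleen and eyes came from 3 wild-type and 3 Tug1-/- samples each, prostate from 3 wild-type and 2 Tug1-/-, MEFs (primary cells grown from embryos, at passage 2) from 3 and 3, and testes from 4 wild-type, 4 Tug1-/- and 3 rescue mice. In Tug1-/- mice a lacZ reporter stands in place of most of the gene, downstream of the retained promoter and the first exon. Rescue mice carried in addition tg(Tug1), a Tug1 cDNA under a doxycycline-inducible promoter, and CAGs-rtTA3, the activator that doxycycline in the diet switches on. In the labels, wild-type testes and the samples of the other 6 listed tissues were without the neomycin cassette (no Neo), whereas Tug1-/- and rescue testes were listed with Neo and LacZ, so that by these labels the cassette and the loss of Tug1 cannot be told apart in testes. The study's methods describe the colony as bred from mice without the cassette, which differs from the testes label, and the difference could not be settled here. Brain values come from an existing dataset that the authors re-analysed, and its group sizes are not in the labels. The age of the animals is not in the labels.

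Macrophages are resident in nearly every organ, where they engulf dying cells and debris, recycle iron from old red cells and sense microbes. Their survival depends on the receptor Csf1r and its ligands Csf1 and Il34, and most of their genes are opened by the transcription factor PU.1, the product of Spi1. They take tissue-specific forms, such as microglia in brain, Kupffer cells in liver, red pulp macrophages in spleen and interstitial and peritubular macrophages in testes, and each form uses the marker genes to a different extent. In RNA from whole tissue, more cells of a type and more RNA per cell cannot be told apart.

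Levels are given as the authors' mean per group in TPM (transcripts scaled to a fixed total per library), a unit that corrects read counts for gene length and depth. No value of a single mouse was read, and the authors' own fold changes, statistics and p-values were not used. No error between mice and no test is therefore given, and each difference below is a description of 2 group means. The log2 ratio was computed from the means after adding 0.1 TPM to each, and a gene was called past the limit where the second mean was over 25% higher or over 20% lower than the first (0.32 on the log2 scale in either direction) and the mean of both groups was at least 1 TPM. The share of all genes past the same limit in the same tissue is given as background. The only error computed here is the standard error from counting reads (counting SE), which leaves out all differences between animals.

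On GRCm38, the genes lie at chr17:57358686-57483529 (Adgre1), chr18:61105572-61132149 (Csf1r), chr11:69664213-69666153 (Cd68), chr6:124304656-124330527 (Cd163), chr2:14229392-14332057 (Mrc1), chr18:36725074-36726736 (Cd14), chr10:117277331-117282321 (Lyz2), chr17:35170991-35176068 (Aif1), chr3:96282909-96293969 (Fcgr1) and chr9:119901616-120069879 (Cx3cr1), as whole genes of the annotation used for counting. They are spread over 8 chromosomes, with Adgre1 and Aif1 sharing 1 and Csf1r and Cd14 another.

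Tug1 itself was at 0.0825 to 0.512% of the wild-type mean in 7 tissues and at 2.21% in testes (means of 40.1, 0.885 and 1.60 TPM in wild-type, Tug1-/- and rescue mice). Tissues carried their own defining genes, such as Prm1 in testes, Alb in liver and Pbsn in prostate. The mean library held 38.7 to 48.3 M counted reads in 6 tissues and 17.6 M in brain, and is unknown for testes. The median log2 ratio of all genes lay at -0.11 in eyes, 0.10 in heart and -0.11 in spleen, so that member ratios there are also given relative to that median where they were past the limit or where their sign turns. In the other 5 tissues it was within 0.05 of 0.

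Wild-type levels differed widely between tissues. Csf1r, the receptor tyrosine kinase for Csf1 and Il34, was at 410 TPM in spleen, 57.3 in brain, 42.6 in eyes, 30.6 in MEFs, 29.2 in heart, 20.8 in liver, 13.1 in prostate and 7.21 in testes. Spleen was highest for 8 of the 10 members. The exceptions were Aif1, which encodes an actin-bundling protein of macrophages also called Iba1, and Cx3cr1, the receptor for the chemokine Cx3cl1. Aif1 was highest in testes, at 617 TPM, against 155 TPM in spleen and 3.15 to 8.41 TPM elsewhere. In testes it thus stood at 85.6 times Csf1r, whereas in the other 7 tissues it was at 0.117 to 0.379 times Csf1r. Testes Aif1 RNA therefore did not follow the other members in level, and which cells of the testis carry it cannot be read from whole tissue. Cx3cr1 was at 31.8 TPM in brain, 26.8 in spleen and 21.7 in MEFs, each within 25% of the next in that order, and at 0.326 TPM in liver.

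**Figure D1:**
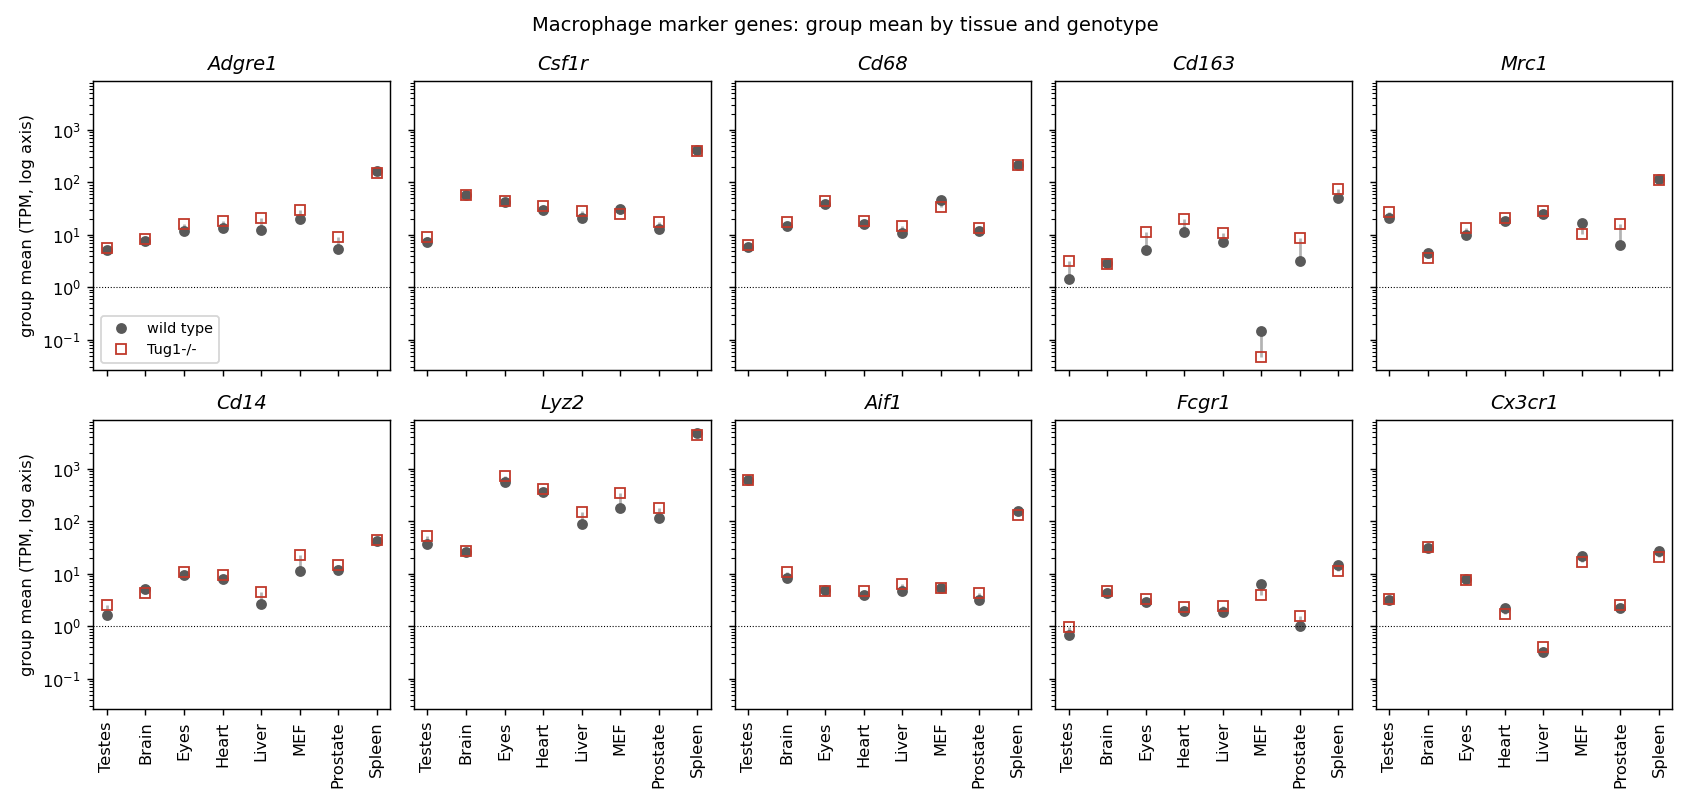
Group mean in TPM (log axis) of the 10 members in 8 tissues, with filled circles for wild type and open squares for Tug1-/-, and a dotted line at 1 TPM. Spleen is highest for 8 members, testes for Aif1 (617 TPM) and brain for Cx3cr1 (31.8 TPM), while Cd163 in MEFs, Cx3cr1 in liver and Fcgr1 in testes lie under the line in both groups.

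The order of the members within a tissue also varied. Lyz2, which encodes the lysozyme of macrophages, monocytes and neutrophils, led in 6 tissues, from 87.7 TPM in liver to 4804 TPM in spleen. In brain Csf1r led (57.3 TPM), followed by Cx3cr1 (31.8 TPM) and Lyz2 (26.4 TPM), and in testes Aif1 was followed by Lyz2 (37.0 TPM) and Mrc1 (20.8 TPM). Mrc1, the mannose receptor, was at 2.89 times Csf1r in testes and 1.19 times in liver, but at 0.0774 times in brain. The ratio of Lyz2 to Csf1r was 0.461 in brain and 4.21 to 13.4 in the other tissues. MEF cultures held 9 of the 10 members above 1 TPM, among them Cd68 at 45.4 TPM and Csf1r at 30.6 TPM, and lacked Cd163, which was at 0.145 TPM in wild type.

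Cd163 and Mrc1 are endocytic receptors, the former a scavenger receptor of hemoglobin complexes and the latter a lectin for mannose-bearing glycoproteins. Cd163 was at 3.16 TPM in wild-type and 8.81 in Tug1-/- prostate, a log2 ratio of 1.45 (counting SE 0.069). In eyes it was at 5.09 and 11.2 TPM (1.12), in testes at 1.45 and 3.16 TPM (1.07) and in heart at 11.3 and 20.4 TPM (0.84). In spleen it was at 50.0 and 76.3 TPM (0.61) and in liver at 7.46 and 10.7 TPM (0.52), so that Tug1-/- was the higher group in these 6 tissues. Relative to all genes the ratio was 1.22 in eyes, 0.74 in heart and 0.72 in spleen. Brain was the exception, with 2.89 and 2.79 TPM (-0.05). In MEFs Cd163 was under the minimum in both groups (0.145 and 0.048 TPM), with 32.8 reads behind the pair and a counting SE of 0.58.

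Mrc1 was at 6.41 TPM in wild-type and 16.4 in Tug1-/- prostate, a log2 ratio of 1.34 (counting SE 0.045). It was also higher past the limit in eyes, with 9.90 and 13.5 TPM (0.45, or 0.55 relative to all genes), and in testes, with 20.8 and 27.4 TPM (0.40). In MEFs it was lower past the limit, at 16.9 and 10.6 TPM (-0.67). The ratios were within the limit in liver (24.7 and 28.9 TPM, 0.23), heart (18.3 and 20.8 TPM, 0.18), spleen (116 and 113 TPM, -0.03, or 0.07 relative to all genes) and brain (4.43 and 3.58 TPM, -0.30). Liver sinusoidal endothelium also makes Mrc1, so its level in liver is not that of macrophages alone.

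Over the 8 tissues the ratios of Cd163 and Mrc1 went together more than most pairs (Pearson's r = 0.91 over 8 tissues, and 0.88 over the 7 in which both passed the minimum, a restriction chosen after the data were seen). This is a description over tissues that share a pipeline, without a test. The 250 bases before the RefSeq start (GRCm38.p6) are shown for this pair and for Cd68 and Fcgr1 to set their sequences side by side. A window was matched for 7 of the 10 members and is printed for 4. They are Cd163 (chr6:124304401-124304650, plus strand), Mrc1 (chr2:14229164-14229413, plus strand, ending just inside the gene as the files place it), Cd68 (chr11:69666171-69666420, minus strand) and Fcgr1 (chr3:96293970-96294219, minus strand). Capitals mark GAGGAA or its reverse complement TTCCTC, the core letters that PU.1 is known to bind, each sequence written 5′ to 3′ on the strand of its gene.
Cd163: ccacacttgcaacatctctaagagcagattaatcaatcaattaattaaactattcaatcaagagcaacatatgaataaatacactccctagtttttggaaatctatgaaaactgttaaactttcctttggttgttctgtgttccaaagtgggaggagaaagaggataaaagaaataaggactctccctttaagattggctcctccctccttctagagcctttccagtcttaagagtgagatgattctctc
Mrc1: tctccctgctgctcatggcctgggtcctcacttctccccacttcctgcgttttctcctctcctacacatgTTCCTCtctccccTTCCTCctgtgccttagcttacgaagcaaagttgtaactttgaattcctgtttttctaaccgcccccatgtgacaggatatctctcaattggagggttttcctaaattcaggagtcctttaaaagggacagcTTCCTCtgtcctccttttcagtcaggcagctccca
Cd68: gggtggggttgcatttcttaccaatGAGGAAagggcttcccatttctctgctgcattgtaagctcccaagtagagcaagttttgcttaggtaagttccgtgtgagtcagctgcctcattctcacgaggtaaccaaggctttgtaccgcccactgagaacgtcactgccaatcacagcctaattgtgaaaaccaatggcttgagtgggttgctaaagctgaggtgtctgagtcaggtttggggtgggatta
Fcgr1: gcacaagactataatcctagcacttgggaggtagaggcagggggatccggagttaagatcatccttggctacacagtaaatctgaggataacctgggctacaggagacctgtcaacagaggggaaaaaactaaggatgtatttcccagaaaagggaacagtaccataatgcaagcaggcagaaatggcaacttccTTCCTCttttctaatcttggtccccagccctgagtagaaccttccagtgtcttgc
The letters occurred in 4 of the 7 windows, against 23.3% of the 32851 windows of the same length in the RefSeq table. Mrc1 held 3 matches, which start 180, 167 and 35 bases before the gene start, Cd68 held 1 at 225 bases and Fcgr1 held 1 at 55 bases. Aif1 was the fourth, with 1 match. Cd163, Lyz2 and Cx3cr1 held none in this window. The pair whose ratios went together thus differed in these letters, and a match is a description of sequence only.

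Adgre1 and Csf1r are surface receptors used to define macrophages. Adgre1 encodes F4/80, an adhesion receptor of most mouse tissue macrophages and of eosinophils. It was at 5.27 TPM in wild-type and 9.07 in Tug1-/- prostate (log2 ratio 0.77, counting SE 0.076), at 12.3 and 21.0 TPM in liver (0.76, counting SE 0.039) and at 19.8 and 29.8 TPM in MEFs (0.59). Heart, with 13.8 and 18.6 TPM (0.43), and eyes, with 11.996 and 16.0 TPM (0.41), were also higher past the limit. Relative to all genes the eye ratio was 0.52, and the heart ratio of 0.32 was only just past the limit. Brain (7.60 and 8.40 TPM, 0.14), testes (5.17 and 5.66 TPM, 0.13) and spleen (168 and 152 TPM, -0.14) were within it. Adgre1 was therefore past the limit in 5 of 8 tissues, each time with Tug1-/- higher.

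Csf1r was past the limit in 3 tissues, with smaller ratios. It was at 20.8 and 28.7 TPM in liver (0.46), 13.1 and 17.5 TPM in prostate (0.41) and 7.21 and 9.14 TPM in testes (0.34). The testes value is only just past the limit, and was within it relative to all genes (0.31). Heart (29.2 and 35.9 TPM, 0.29) and MEFs (30.6 and 25.0 TPM, -0.29) fell just short of it. Relative to all genes the MEF ratio was -0.34, past the limit, which makes 5 of 9 members lower in MEFs. Csf1r in eyes (42.6 and 45.0 TPM, 0.08), brain (57.3 and 58.4 TPM, 0.03) and spleen (410 and 395 TPM, -0.05, or 0.06 relative to all genes) differed by under 0.1 on the log2 scale. Its gene overlaps Hmgxb3 on the opposite strand, and the library kit does not mark strand, so reads of the shared part cannot be assigned.

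Lyz2 and Cd68 are genes of the lysosome and of secretion, Cd68 encoding a heavily glycosylated lysosomal membrane protein. Lyz2 was at 183 TPM in wild-type and 342 in Tug1-/- MEFs (0.90, counting SE 0.021), at 87.7 and 154 TPM in liver (0.81) and at 116 and 184 TPM in prostate (0.66). Testes, with 37.0 and 52.5 TPM (0.51), and eyes, with 572 and 750 TPM (0.39, or 0.50 relative to all genes), were also higher past the limit. Lyz2 in heart (362 and 415 TPM, 0.20), brain (26.4 and 27.9 TPM, 0.08) and spleen (4804 and 4453 TPM, -0.11) was within the limit. Lyz2 was thus past it in 5 of 8 tissues with Tug1-/- higher, and since only uniquely mapped reads were counted, reads that fit its near-identical paralog Lyz1 equally well are not in these values.

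Cd68 was at 11.0 and 15.1 TPM in liver (0.45), the only tissue where it was higher past the limit, and at 45.4 and 33.4 TPM in MEFs (-0.44), the only tissue where it was lower. In MEFs it went the opposite way to Lyz2 and Adgre1. The ratio was between -0.02 and 0.26 in the other 6 tissues, where the wild-type level ran from 5.79 TPM in testes to 216 TPM in spleen. In spleen the Cd68 ratio of -0.02 was 0.09 relative to all genes.

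Cd14 and Fcgr1 sense microbes, Cd14 as the co-receptor that hands lipopolysaccharide to Tlr4 and Ly96, and Fcgr1 as the high-affinity receptor for IgG, which signals through Fcer1g. Cd14 was at 11.2 TPM in wild-type and 22.8 in Tug1-/- MEFs (1.02, counting SE 0.076), at 2.67 and 4.47 TPM in liver (0.72) and at 1.63 and 2.57 TPM in testes (0.62). The ratios were 0.29 in prostate (12.03 and 14.8 TPM), 0.26 in heart (7.96 and 9.57 TPM), 0.18 in eyes (9.51 and 10.8 TPM), 0.04 in spleen (43.3 and 44.6 TPM) and -0.23 in brain (5.07 and 4.32 TPM). The 3 tissues past the limit all had Tug1-/- higher.

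Fcgr1 was past the limit in both directions. It was higher in Tug1-/- prostate, at 1.03 and 1.60 TPM (0.59, counting SE 0.20), and in liver, at 1.87 and 2.41 TPM (0.35, or 0.25 and inside the limit with a pseudocount of 1 TPM). It was lower in Tug1-/- MEFs, at 6.50 and 3.97 TPM (-0.70, counting SE 0.10), and in spleen, at 14.8 and 11.6 TPM (-0.35). The spleen ratio relative to the median of all genes was -0.24, inside the limit. In testes Fcgr1 was under 1 TPM in both groups (0.689 and 0.968 TPM), and in brain, eyes and heart its ratio was 0.13 to 0.27.

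Aif1 was past the limit in liver, at 4.70 and 6.44 TPM (0.45), prostate, at 3.15 and 4.25 TPM (0.42), and brain, at 8.41 and 10.8 TPM (0.36), where it was the only member past it. In testes, where its level was highest, wild-type mice had 617 TPM and Tug1-/- mice 604 TPM (-0.03). The ratio was 0.22 in heart, -0.04 in MEFs, -0.07 in eyes (0.03 relative to all genes) and -0.23 in spleen.

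Cx3cr1 was the only member with no tissue past the limit in the upward direction. It was lower in Tug1-/- heart, at 2.26 and 1.70 TPM (-0.39, or -0.27 and inside the limit with a pseudocount of 1 TPM), in MEFs, at 21.7 and 16.6 TPM (-0.38, counting SE 0.040), and in spleen, at 26.8 and 20.6 TPM (-0.38). Relative to all genes the heart ratio was -0.49 and the spleen ratio -0.27, the latter inside the limit. In brain, where Cx3cr1 is a microglial gene, it was at 31.8 and 32.9 TPM (0.05), and in eyes at 7.98 and 7.52 TPM (-0.09, or 0.02 relative to all genes). The gene as the files place it (chr9:119901616-120069879) spans several other genes on both strands, so its reads are less certain than those of the other members.

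**Figure D2:**
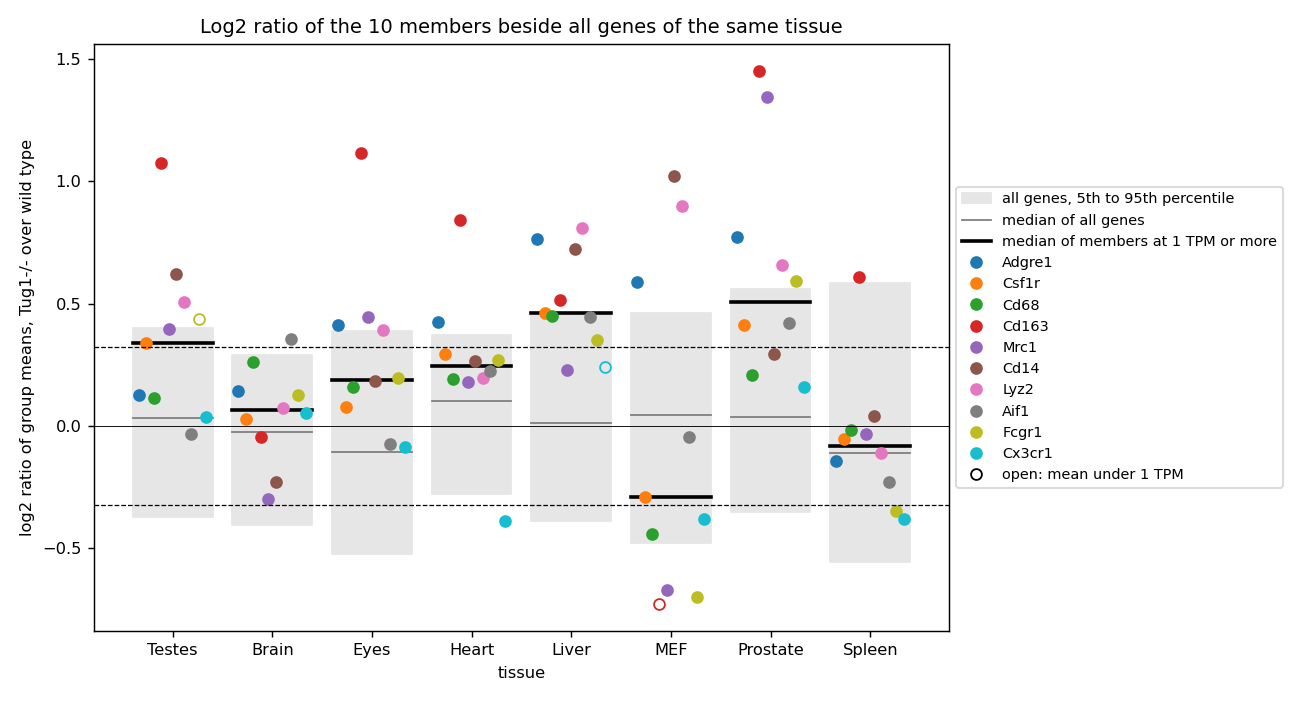
Log2 ratio of the group means, Tug1-/- over wild type, for each member (coloured points, open where the mean of both groups was under 1 TPM) in 8 tissues. Grey bars run from the 5th to the 95th percentile of all genes at 1 TPM or more in that tissue, the thin grey and thick black lines are the medians of all genes and of the members, and dashed lines mark the limit (0.32 in either direction). Cd163 stands above the bar in 6 tissues, and members lie on both sides of 0 in MEFs. The spleen median of -0.08 turns to 0.03 relative to all genes.

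By tissue, the members' shares past the limit were read against those of all genes at 1 TPM or more. In liver 8 of the 9 members that passed the minimum were higher in Tug1-/- and none was lower, against a background of 9.36% higher and 6.93% lower, and the median log2 ratio was 0.46 for the members and 0.01 for all genes. In prostate 7 of 10 were higher and none lower, against 11.4% and 5.63%, with medians of 0.51 and 0.04. In testes 5 of 9 were higher (Cd14, Cd163, Csf1r, Lyz2 and Mrc1) and none lower, against 7.18% and 5.84%, with medians of 0.34 and 0.03. Beside these, Insl3, a hormone gene of Leydig cells, was at 56.9 and 144 TPM in testes (1.33), a larger ratio than that of any member there, and its part in the members' difference was not tested. Without Lyz2, Cd14 and Mrc1, which other cells also express, 2 members remained higher in testes and the median there was 0.12. The members' median over all that passed was above that of all genes in these 3 tissues by 0.31 to 0.47.

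In eyes 4 of 10 were higher (Adgre1, Cd163, Lyz2 and Mrc1) and none lower, against 6.21% and 13.7%, and the median was 0.19, or 0.29 relative to all genes. Without Lyz2, Cd14 and Mrc1, 2 were higher in eyes. In heart 2 of 10 were higher (Adgre1 and Cd163) and Cx3cr1 was lower, against 6.97% and 4.18%, with a median of 0.24, or 0.14 relative to all genes. In brain Aif1 alone was higher and none was lower, against 4.34% and 6.67%, with a median of 0.06. In spleen Cd163 alone was higher while Cx3cr1 and Fcgr1 were lower, against 8.86% and 16.7%, with a median of -0.08, or 0.03 relative to all genes. The shares in brain and spleen were near the background.

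In MEFs 3 of 9 members were higher in Tug1-/- (Adgre1, Cd14 and Lyz2) and 4 were lower (Cd68, Cx3cr1, Fcgr1 and Mrc1), against 10.5% and 9.02% of all genes, with a median of -0.29. Without Lyz2, Cd14 and Mrc1, 1 was higher. Lower members outnumbered higher ones past the limit in MEFs and spleen, and in no other tissue, and in spleen this turned to 1 higher and 0 lower relative to all genes. From counting alone, the ratio lay beyond 2 counting SEs for 10 of 10 members in heart, 9 of 10 in liver and prostate, 8 of 10 in MEFs and spleen and 7 of 10 in eyes. Those errors do not cover the spread between mice or cultures, and with 2 or 3 samples in most groups a single animal could carry a ratio.

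Testes of rescue mice were set beside both other groups, to ask which differences the transgene was accompanied by. The comparisons share libraries and are given side by side. Cd163 was at 1.45 TPM in wild type, 3.16 in Tug1-/- and 2.32 in rescue, so that rescue lay between the others. Lyz2 was at 37.0, 52.5 and 41.7 TPM, nearer to wild type than to Tug1-/- in rescue. Mrc1 was at 20.8, 27.4 and 28.7 TPM, with rescue highest.

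Csf1r was at 7.21, 9.14 and 8.94 TPM in the same order, and Cd14 at 1.63, 2.57 and 2.26 TPM. Both stayed near the Tug1-/- mean. The rescue mean lay between the other 2 means for 6 of 10 members. Of 9 members, Cd163 (-0.43) and Lyz2 (-0.33) were lower past the limit in rescue than in Tug1-/- and none was higher, against 6.71% of all genes lower and 3.59% higher. Cd14 (0.44), Cd163 (0.65) and Mrc1 (0.46) were higher in rescue than in wild type and none was lower, against 7.45% higher and 8.64% lower. Without Lyz2, Cd14 and Mrc1, 1 was lower than in Tug1-/- and 1 higher than in wild type. The median log2 ratio of the members was -0.14 for rescue over Tug1-/- and 0.17 for rescue over wild type. Aif1 was at 617, 604 and 587 TPM.

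Of a list of 14 other macrophage genes, 11 passed the minimum. None was past the limit in rescue against Tug1-/- (median 0.05, 8 of 11 above 0), near the 6.71% lower and 3.59% higher of all genes. In rescue against wild type 7 of 11 were higher and none lower (median 0.42), against 7.45% and 8.64%. Of 8 ligands and partners of the members (listed below), Hp (-0.54) and Ly96 (-0.50) were lower past the limit in rescue than in Tug1-/- (median -0.20). Of 4 resident macrophage genes (also below), Folr2 (-0.39) alone was lower (median 0.00). Mpeg1, a pore-forming protein of phagosomes, was at 12.9 TPM in wild type, 32.8 in Tug1-/- and 34.8 in rescue. Markers of other cells differed as well. Insl3 was at 56.9, 144 and 65.5 TPM, near wild type in rescue. The neutrophil marker Ltf was at 3.46, 30.9 and 0.0316 TPM. Of 5 fibroblast markers 2 were lower in rescue than in Tug1-/- (against 6.71% of all genes), Dcn (22.7, 25.8 and 18.4 TPM) and Lum (2.71, 2.81 and 1.89 TPM). None of 5 erythroid or 4 endothelial markers was past the limit in that comparison, which is near the share of all genes. The part of these cells in the members' values was not tested.

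**Figure D3:**
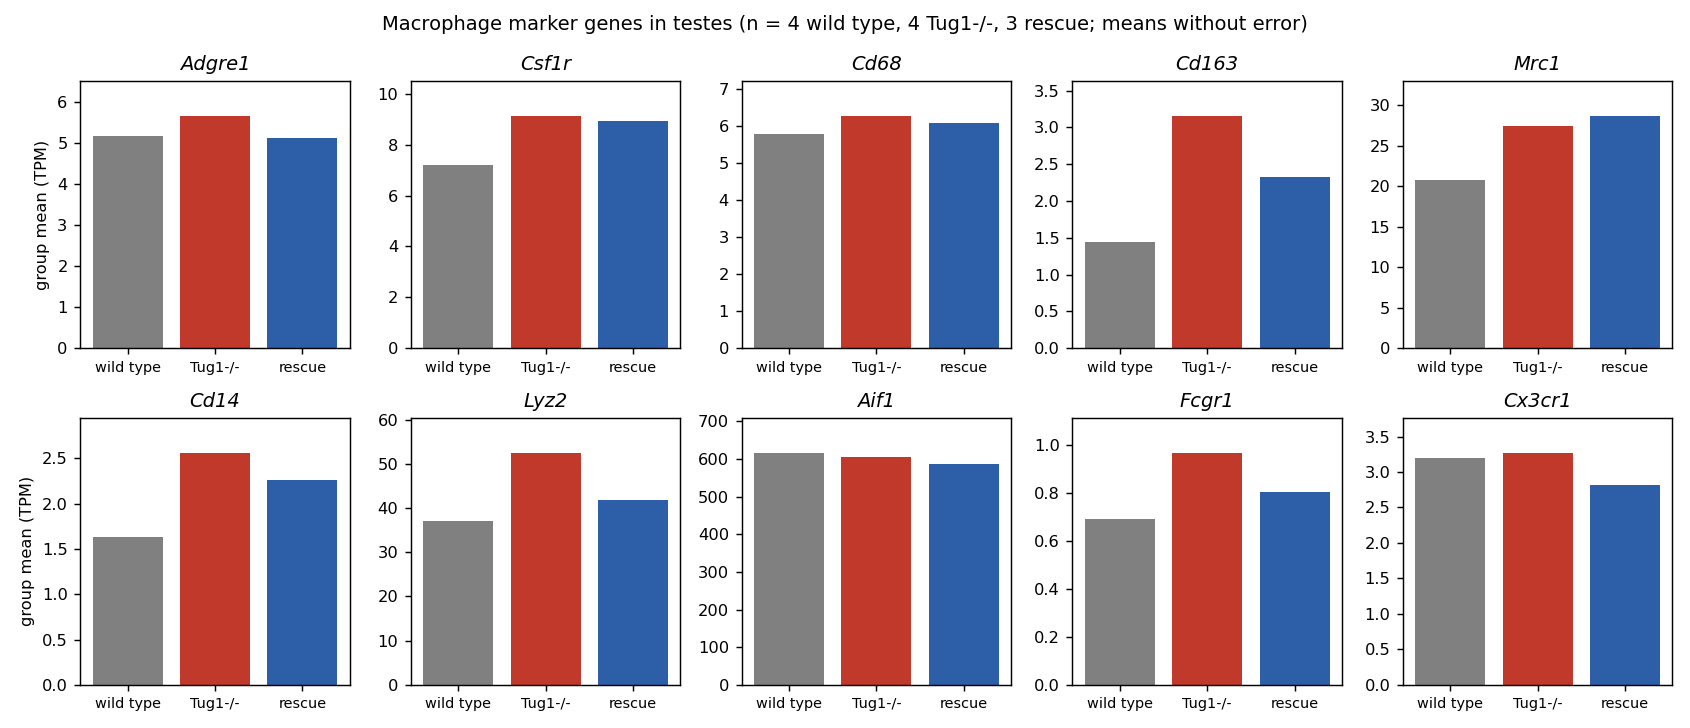
Group mean in TPM (bars, linear axes from 0, each panel with its own scale) of the 10 members in testes of wild-type (n = 4), Tug1-/- (n = 4) and rescue (n = 3) mice, without error bars since only means were read. Rescue lies between the other groups for Cd163 (1.45, 3.16 and 2.32 TPM) and Lyz2 (37.0, 52.5 and 41.7 TPM) and at the top for Mrc1 (28.7 TPM).

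The ligands and partners of the members were read from a list of 9 genes. Past the limit in Tug1-/- were 4 of 8 higher and 1 lower in testes (7.18% and 5.84% of all genes), 4 of 8 higher in liver (9.36%) and in MEFs (10.5%), and 2 of 9 higher in prostate (11.4%). In eyes 1 of 9 was higher (6.21%), in spleen 1 of 9 was higher (8.86%), in heart 1 was higher and 1 lower of 9 (6.97% and 4.18%), and in brain 1 of 8 was lower (6.67%), so that in these tissues the list was near the background. Csf1, the ligand of Csf1r, was at 338 TPM in wild-type and 581 in Tug1-/- MEFs (0.78), while Csf1r there was at 30.6 and 25.0 TPM. In testes Csf1 was at 3.01 and 4.50 TPM (0.56) and Il34, the other ligand, at 2.53 and 1.62 TPM (-0.61), whereas in MEFs Il34 was at 1.44 and 2.36 TPM (0.68). Il34 was also higher past the limit in liver (1.78 and 2.39 TPM, 0.41). In the other 6 tissues the Csf1 ratio was between -0.13 and 0.13.

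Haptoglobin (Hp), the plasma protein whose complex with hemoglobin Cd163 takes up, was at 20.9 and 81.1 TPM in eyes (1.95) and at 9.24 and 35.2 TPM in prostate (1.92). It was also higher past the limit in testes (1.90 and 4.30 TPM, 1.14), MEFs (1.05 and 2.81 TPM, 1.34) and spleen (25.2 and 38.0 TPM, 0.59), and was at 2478 and 2526 TPM in liver (0.03). It was at 29.9 and 15.8 TPM in heart (-0.92), a tissue in which Cd163 was higher in Tug1-/-. Hmox1, which breaks down heme, was higher past the limit in testes (11.4 and 18.2 TPM, 0.67), heart (13.8 and 21.6 TPM, 0.65), liver (19.5 and 35.3 TPM, 0.85), MEFs (226 and 301 TPM, 0.41) and prostate (8.87 and 11.96 TPM, 0.43). Hp and Cd163 thus differed in the same direction in eyes, prostate, testes and spleen and in opposite directions in heart.

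Cx3cl1, the ligand of Cx3cr1, had no ratio past the limit in any tissue where it passed the minimum, and was at 531 and 532 TPM in brain. Fcer1g, the signalling chain of Fcgr1, was higher past the limit in liver (13.5 and 19.4 TPM, 0.52) and testes (6.12 and 8.26 TPM, 0.43) and was at 56.7 and 49.4 TPM in MEFs (-0.20). Of the partners of Cd14, Tlr4 was at 1.03 and 1.52 TPM in liver (0.51) and Ly96 at 6.94 and 7.93 TPM (0.19). Ly96 was the partner lower past the limit in brain, at 2.52 and 1.68 TPM (-0.56). Lbp, the plasma protein that carries lipopolysaccharide to Cd14, had no ratio past the limit in the 7 tissues where it passed the minimum, and was at 30.6 and 28.9 TPM in liver (-0.09).

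The same list of 14 other macrophage genes, which includes Spi1, was read beside the members in every tissue. In liver 11 of 12 that passed the minimum were higher in Tug1-/- and none lower, against 9.36% and 6.93% of all genes, with a median log2 ratio of 0.47. In prostate 11 of 13 were higher and none lower, against 11.4% and 5.63%, with a median of 0.50. In testes 6 of 11 were higher and none lower, against 7.18% and 5.84% (median 0.40), led by Mpeg1 at 12.9 and 32.8 TPM (1.34). In MEFs 1 of 14 was higher and 7 were lower, against 10.5% and 9.02% (median -0.27), among them the complement gene C1qa at 132 and 99.7 TPM (-0.40).

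Eyes had 4 of 13 higher and none lower, against 6.21% and 13.7%. Heart had 4 of 14 higher and 1 lower, against 6.97% and 4.18% (median 0.08, under the 0.10 of all genes). Brain had none of 10 in either direction, against 4.34% and 6.67%, and spleen none of 14 higher and 1 lower, against 8.86% and 16.7%. Spi1 itself was past the limit only in liver, at 2.73 and 3.83 TPM (0.48). C1qa was at 50.4 and 79.7 TPM in prostate (0.66) and at 56.3 and 83.4 TPM in liver (0.57).

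Genes of resident macrophages were read from a further list of 10. Marco, a scavenger receptor, was at 3.56 TPM in wild-type and 25.3 in Tug1-/- liver (2.80), at 0.0247 and 26.7 TPM in MEFs (7.75) and at 394 and 377 TPM in spleen (-0.06). The liver list had 7 of 9 higher, against 9.36% of all genes, and none lower, among them the Kupffer cell genes Vsig4 (36.2 and 48.9 TPM, 0.43) and Cd5l (97.4 and 125 TPM, 0.36), while Clec4f, which marks Kupffer cells, was at 90.8 and 105 TPM (0.22). Heart had 5 of 6 higher, against 6.97%, and none lower, with Lyve1, a hyaluronan receptor also made by lymphatic endothelium, at 21.4 and 33.2 TPM (0.63). Among these 5, Folr2 (0.33), Vsig4 (0.34) and Mertk (0.41) were within the limit relative to the heart median of all genes (0.10). Prostate had 3 of 4 higher (against 11.4%), eyes 3 of 6 (6.21%), testes 1 of 4 (7.18%) and MEFs 1 of 3 (10.5%), and none was lower in these tissues. In spleen none of 8 was higher and 2 were lower, against 8.86% and 16.7% (Vsig4 at 3.30 and 2.13 TPM, -0.61, and Lyve1 at 1.19 and 0.926 TPM, -0.33), and in brain 1 of 2 was lower, against 6.67% (Lyve1 at 2.71 and 1.89 TPM, -0.49). The list of 7 microglial genes, which includes P2ry12 (52.1 and 51.8 TPM in brain, -0.01), held none past the limit in brain, eyes, prostate and spleen. It had 2 of 4 higher in liver (against 9.36%), 1 higher and 2 lower of 6 in heart (6.97% and 4.18%), 3 of 5 lower in MEFs (9.02%) and 1 of 4 lower in testes (5.84%). Calls of 1 gene in these short lists are not read further.

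**Figure D4:**
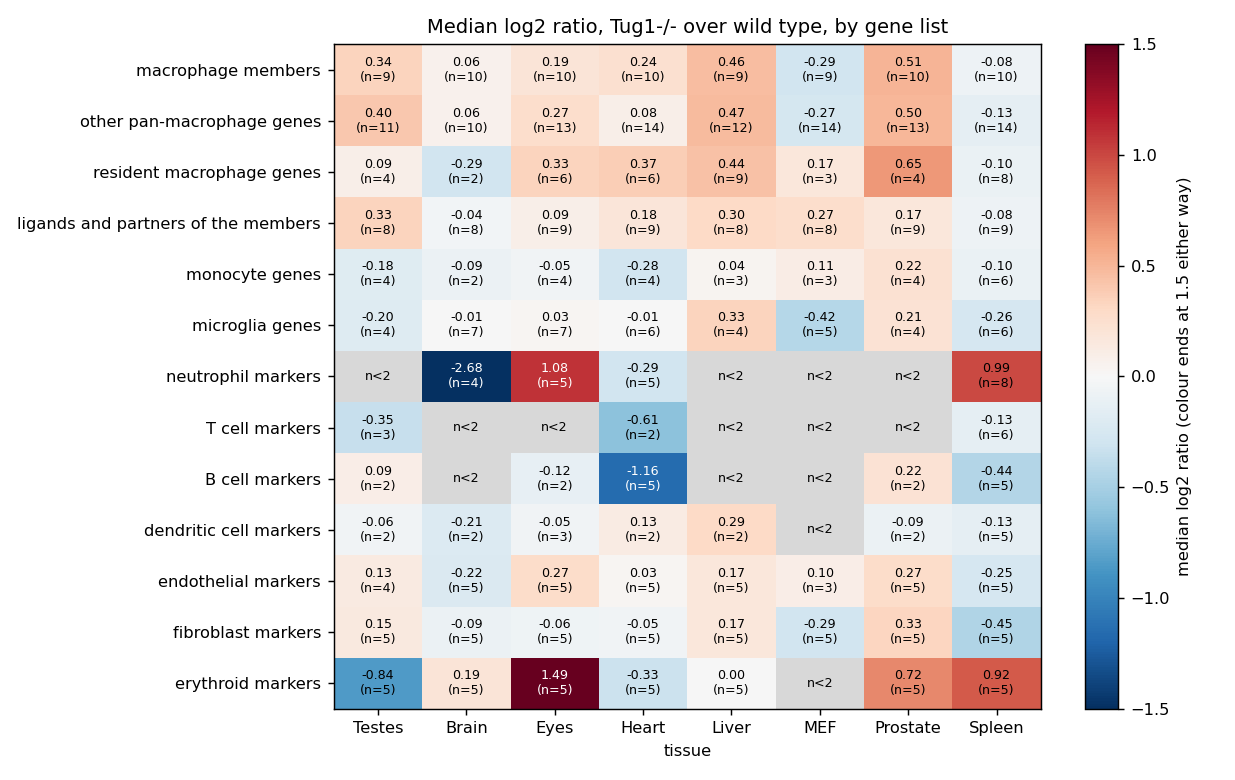
Median log2 ratio, Tug1-/- over wild type, of 13 gene lists (rows) in 8 tissues (columns), over the n genes of each list at 1 TPM or more, with grey where fewer than 2 passed. The members and the other pan-macrophage genes are above 0 in testes, brain, eyes, heart, liver and prostate and below 0 in MEFs. In heart the 0.08 of the other genes lies under the 0.10 of all genes, and in spleen the members' -0.08 turns to 0.03 relative to all genes.

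Markers of other cells also differed between the groups, to be read against the shares of all genes past the limit given above by tissue. The 5 erythroid markers summed to 699 TPM in wild-type and 2179 in Tug1-/- eyes (5 of 5 higher past the limit), to 161 and 292 TPM in prostate (4 of 5 higher) and to 24887 and 44736 TPM in spleen (5 of 5 higher). In heart they summed to 44624 and 34952 TPM (4 of 5 lower) and in testes to 47.3 and 39.6 TPM (4 of 5 lower, whereas Alas2, the first enzyme of heme synthesis in red cell precursors, was higher at 18.3 and 23.9 TPM, 0.39). In brain they summed to 221 and 253 TPM (1 of 5 higher). In liver they summed to 779 and 788 TPM, with 0 of 5 past the limit, while 8 members were higher there.

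The 8 neutrophil markers, cells that also express Lyz2 and Cd14, summed to 1720 and 3378 TPM in spleen (5 of 8 higher and 1 lower), 16.4 and 32.3 TPM in eyes (4 of 5 higher and 1 lower), and 24.5 and 7.21 TPM in brain (3 of 4 lower, with Camp, Retnlg and Cxcr2 at 0 in Tug1-/-). In MEFs they summed to 0.415 and 0.365 TPM, with none at 1 TPM, where Lyz2 and Cd14 were higher in Tug1-/-. In prostate they summed to 0.706 and 1.72 TPM, none at 1 TPM, in liver to 4.40 and 6.34 TPM (1 of 1 higher) and in heart to 59.4 and 49.5 TPM (2 of 5 lower). In testes the sum of 4.79 and 32.9 TPM was almost wholly Ltf (3.46 and 30.9 TPM), which secretory epithelium also makes.

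B cell markers were lower in Tug1-/- heart (42.2 and 19.3 TPM in sum, 5 of 5 lower) and spleen (4544 and 3400 TPM, 4 of 5 lower), and of those that passed the minimum elsewhere 1 of 2 was lower in eyes and 1 of 2 higher in prostate. Ighm, the heavy chain of IgM made by B cells and plasma cells, was read among the spleen genes. It was higher past the limit in Tug1-/- prostate (25.2 and 128 TPM, 2.34), liver (11.04 and 19.2 TPM, 0.79), spleen (13038 and 18347 TPM, 0.49), eyes (11.4 and 15.1 TPM, 0.40) and testes (3.11 and 3.95 TPM, 0.34), and was lower in heart (63.9 and 32.3 TPM, -0.98). Of the dendritic cell markers, 1 of 2 was higher in liver (Clec9a at 0.745 and 1.42 TPM, 0.84) and 1 of 5 lower in spleen (Itgax at 66.1 and 51.2 TPM, -0.37), with none past the limit elsewhere. Of the T cell markers that passed the minimum, 2 of 2 were lower in heart and 2 of 3 in testes, and none of 6 was past the limit in spleen. The 2 in testes were Cd2 (-0.63) and Cd3d (-0.35), whereas the Cd4 ratio was positive and within the limit (0.23). Cd3e (0.09), Cd3g (0.43) and Cd8a (0.42), all under the minimum in testes, also had positive ratios. The T cell list as a whole was therefore not lower in testes. Fibroblast markers were higher in Tug1-/- prostate (223 and 295 TPM, 3 of 5 higher) and lower in spleen (117 and 86.0 TPM, 3 of 5 lower) and MEFs (7453 and 7007 TPM, 2 of 5 lower). Elsewhere 1 of 5 fibroblast markers was higher in liver, 1 higher and 1 lower in eyes and 1 lower in brain. At most 2 endothelial markers were past the limit in any tissue. Liver genes in spleen summed to 23.4 TPM in wild-type mice and 1.28 TPM in Tug1-/- mice, mostly Alb (16.4 and 0.0843 TPM), with 4 of 4 lower. In prostate 1 of the liver genes passed the minimum, Cyp2e1, at 8.08 and 62.2 TPM. Cyp2e1 was also higher past the limit in eyes (39.1 and 181 TPM, 2.21) and testes (2.26 and 3.56 TPM, 0.63), and lower in heart (-0.45) and liver (-0.35). Of 4 heart genes in eyes 1 was higher, Actc1 at 244 and 448 TPM (0.88), and 1 was lower. Of 5 eye genes in eyes 1 was lower, Krt12 at 1872 and 1085 TPM (-0.79), and none was higher.

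Of the monocyte genes, none of 3 was past the limit in liver (Fn1 at 297 and 290 TPM, F10 at 367 and 378 TPM and Plac8 at 7.45 and 8.20 TPM). In brain none of 2 was past it, and 1 of 4 was higher in prostate, 1 of 4 in eyes and 1 of 3 in MEFs. In spleen 2 of 6 were higher (Chil3 at 44.6 and 129 TPM, 1.53, and F10 at 4.06 and 8.85 TPM, 1.11), whereas in heart 2 of 4 and in testes 1 of 4 were lower. Ccr2, the chemokine receptor of inflammatory monocytes, was at 2.61 and 3.19 TPM in prostate (0.28) and 0.367 and 0.610 TPM in liver. In liver it was under the minimum, so the liver count leaves it out. The part of these cells in the members' differences was not tested.

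Genes with the most similar pattern were sought among 9580 genes at 1 TPM or more in all 8 tissues. By Pearson's r over 8 tissues with the members' median ratio, the closest were Sept7 (0.99), C1qa (0.97), Ctss (0.97), C1qc (0.97) and Pik3c2a (0.97). C1qa and C1qc encode subunits of complement C1q and Ctss encodes the protease cathepsin S, all made by macrophages. Sept7, a septin, followed the pattern with small ratios, from -0.21 in MEFs to 0.13 in prostate. By wild-type level, the closest to the members' mean were Rel (0.99), Nrros (0.99), Igsf6 (0.98), Nfkbie (0.98) and Arhgap45 (0.97). Rel, a subunit of NF-kappaB, was at 82.8 TPM in spleen and 2.14 to 6.77 TPM in the other tissues. These coefficients rank genes over 8 tissues and carry no test.

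Among the members themselves, the ratios of Csf1r and Fcgr1 (r = 0.92), of Cd14 and Lyz2 (0.86), of Cd68 and Fcgr1 (0.83) and of Adgre1 and Lyz2 (0.82) went together over the 8 tissues, next to Cd163 and Mrc1 above. Where only tissues in which both passed the minimum were used, Csf1r and Fcgr1 had 0.92 and Cd68 and Fcgr1 0.87, over 7 tissues each. Cd14, Lyz2 and Adgre1 were the 3 members higher in Tug1-/- MEFs, and Mrc1, Fcgr1, Cd68 and Cx3cr1 the 4 that were lower there.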

How the data were processed

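RNA was read from tissues of wild-type, Tug1-/- and rescue mice. Libraries were made from polyA RNA with a TruSeq v2 kit, which does not mark strand, and processed with CASAVA 1.8.2, per the submitters' processing notes. The authors aligned reads to GRCm38 (mm10) with STAR, then used featureCounts for the uniquely mapped reads of each gene (GENCODE vM16) and removed genes under a read minimum. Whether counting used strand is not stated. The authors deposited a mean TPM per group, and outside testes a mean DESeq2-normalized signal per gene over all samples of a tissue. Columns of single samples that were left unused numbered 0, and 6 samples of F1 hybrids in 2 groups were not analysed here. The tables also hold the authors' fold changes, statistics and p-values, which were not used.

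The log2 ratio was log2((second mean + 0.1)/(first mean + 0.1)), the minimum was 1 TPM for the mean of both groups, and the limit a mean over 25% higher or over 20% lower. Reads behind a member were its mean normalized signal times the number of samples, and the counting SE follows from their split between groups. Depth per sample is not known, and error between samples was not read, since the authors' statistics were left unused. The members and the gene lists were chosen with earlier results of these data known. Named genes are all members, ligands and partners, the listed genes of highest TPM, and the 5 most alike by each measure. Marco, Mpeg1, Spi1, Lyve1, Vsig4, Clec4f, Tlr4, Insl3, Cyp2e1, Ighm, Clec9a, Itgax, Lum, Alas2, Chil3, F10, Camp, Retnlg and Cxcr2 were named beside their lists, some after their values were seen. Where a listed name had 2 identifiers (Itgam), the one found in most tissues was kept. Promoter windows came from RefSeq (GRCm38.p6). Python 3.11.15, numpy 2.4.6, pandas 2.3.3 and matplotlib 3.10.9 were used, and the steps were tested on simulated data. Alternatives were a pseudocount of 1 TPM, no minimum, a minimum of 5 TPM, centring on the median of all genes, limits of 1.1 and 1.5, and leaving out Lyz2, Cd14 and Mrc1, which other cells also express.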

Additional observations from a re-analysis of the deposited data

How the results depend on the processing

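Of 190 summary values (counts of members past the limit and medians, over 10 comparisons) under 7 alternatives, 153 moved little and 37 moved. The spleen median was the 1 median that changed sign, when centred on all genes (from -0.08 to 0.028), and it was within the limit in both cases. With a limit of 1.5 the members higher in Tug1-/- numbered 3 of 9 in liver, 2 of 9 in testes, 1 of 10 in heart, 1 of 10 in eyes and 0 of 10 in brain. Those lower were 0 of 10 in heart, 2 of 9 in MEFs and 0 of 10 in spleen. Of 9 in testes, 0 were lower in rescue than in Tug1-/- and 1 was higher in rescue than in wild type. With a limit of 1.1 those higher numbered 3 of 10 in brain, 7 of 10 in eyes and 9 of 10 in heart. Those lower were 2 of 10 in brain and 4 of 10 in spleen. Of 9 in testes, 5 were lower in rescue than in Tug1-/-, and in rescue against wild type 5 were higher and 1 lower. The share of all genes past limits of 1.1 and 1.5 was not computed, so these counts are not read as results about the members. In heart the median log2 ratio of all genes was itself 0.10. With a minimum of 5 TPM, which fewer members pass, testes had 3 higher and a median of 0.23, heart 0 lower, prostate a median of 0.66, and rescue 1 lower than Tug1-/- and 1 higher than wild type. With a pseudocount of 1 TPM, heart had 0 lower and the prostate median was 0.37. Centred on all genes, the medians were 0.29 in eyes, 0.14 in heart and 0.028 in spleen, with 0 lower in spleen. Without Lyz2, Cd14 and Mrc1, which are among the members past the limit, testes had 2 higher and a median of 0.12, eyes 2 higher, MEFs 1 higher, rescue 1 lower than Tug1-/-, and rescue against wild type 1 higher and a median of 0.031. Of 43 single ratios past the limit, the minimum of 5 TPM lost 10 (among them Cd163 and Cd14 in testes, Fcgr1 in liver and prostate and Cx3cr1 in heart), the pseudocount of 1 TPM lost 4 (also Fcgr1 in liver and Cx3cr1 in heart), centring lost 3 and gained 1 (Csf1r in MEFs), and 0 changed sign. Csf1r in testes was lost with the pseudocount and with centring (0.31 each). Restricting pairs of members to tissues where both passed the minimum, chosen after seeing the data, moved r by over 0.1 for 17 of 45 pairs and changed its sign for 4. The pairs named for going together moved by less. No paired analysis was possible because only group means were read, and leaving out a replicate could not be done for the same reason. Read number limits Cd163 in MEFs (32.8 reads in all) and Cx3cr1 in liver (176 reads), and for Fcgr1 in testes, also under 1 TPM, it is unknown.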
